A study of Homo sapiens with 12 samples.

Results

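The genes described here encode 9 transcription factors that are known for intestinal epithelial identity: CDX1, CDX2, HNF4A, KLF4, KLF5, GATA6, ELF3, FOXA1 and SOX9. They were taken from a list of names, and they are 9 of the 20007 protein-coding genes examined. For each gene, peaks of histone H3 acetylated at lysine 27 (H3K27ac) were collected within 1 kb and within 50 kb of every GENCODE transcript start on hg38. The peaks came from HCT116 cells, an established human line from a colorectal carcinoma whose MAPK pathway is active, profiled for H3K27ac with CUT&RUN. That method sequences DNA that an antibody-tethered nuclease cuts free around the mark. Cells were left untreated or received, for 24 hours, either cobimetinib (1 μM) or TNFα (100 ng/ml), with 2 libraries in each of the 3 groups. Cobimetinib is an inhibitor of MEK1, a kinase of the MAPK pathway, and TNFα is an inflammatory cytokine. The comparisons ask how acetylated chromatin changes when MAPK signaling is inhibited or stimulated. All libraries came from 1 cell line. The study's methods call them treatment replicates, and the labels do not say whether these were separate cultures, so how much of the spread between them is technical is unknown.

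H3K27ac marks active promoters and enhancers. In the gut, CDX factors set the intestinal program of the epithelium, HNF4A and GATA6 bind with them at enhancers of absorptive cells, and FOXA factors open closed chromatin. KLF4 is associated with differentiated cells, while KLF5 and SOX9 are associated with the proliferating crypt. ELF3 is an ETS family factor of epithelia that takes part in the differentiation of enterocytes.

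Each library has its own peak list, in which every peak carries a score from the peak caller MACS2. The score measures how surely a peak was detected, not how much acetylation it holds, so peaks are described by rank within their own list, where rank 1 is the highest score and tied peaks share a rank. The lists held between 69813 and 124771 peaks, and the lowest score was 20 in every list. Peak lists hold no read depth, which is therefore unknown, and IgG libraries were not analysed here. Untreated replicate 2 stood apart. Its 20000 highest peaks had a median width of 380 bp against 922 to 1265.5 bp in the other 5 libraries, and 7102 of its peaks were tied at the score of the last of them. Promoter peaks were present in all 6 lists for all 6 epithelial markers examined (EPCAM, KRT8, KRT18, KRT19, CDH1 and CLDN4). The same held for 0 of 5 immune, 0 of 3 endothelial, 0 of 3 hepatocyte, 0 of 3 gastric and 2 of 6 mesenchymal markers (COL1A1 and COL3A1). In some lists only, peaks were present for 3 immune, 1 endothelial, 2 hepatocyte, 0 gastric and 2 further mesenchymal markers.

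Among the 9 factors, 6 had an H3K27ac peak within 1 kb of a start in all 6 lists: CDX2, HNF4A, KLF4, KLF5, ELF3 and SOX9. FOXA1 and GATA6 had one in 5 lists and lacked it in untreated replicate 2. CDX1 had none in any list. Of all protein-coding genes, 51.9% had a promoter peak in all 6 lists and 25.5% had none. The peaks at these starts were of middling rank. Between 3 of the 9 factors (untreated replicate 2) and 6 of the 9 (untreated replicate 1) had a promoter peak among the 20000 highest. In the same libraries, 34.03% and 52.12% of all genes did.

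**Figure D1:**
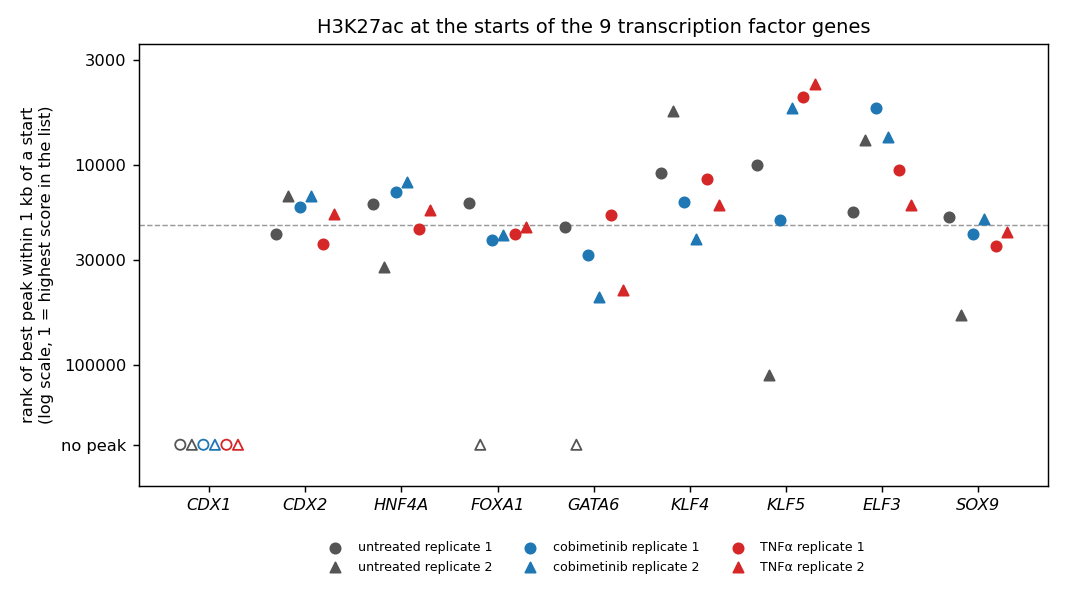
Rank of the best H3K27ac peak within 1 kb of any transcript start of each gene (vertical axis, log scale, higher is better), 1 point per library. Grey, blue and red stand for untreated, cobimetinib and TNFα, circles and triangles for replicates 1 and 2, open symbols for no peak, and the dashed line marks rank 20000. CDX1 has no peak in any library, and the KLF5 point of untreated replicate 2 lies far below the rest at 111728.

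CDX2 and CDX1 are the caudal-type homeobox factors, and CDX2 alone of them had a promoter peak. At CDX2 the best promoter rank was 22206 and 14328 in untreated cells, 16265 and 14285 with cobimetinib, and 24811 and 17542 with TNFα. Both TNFα ranks were worse than both cobimetinib ranks, and the untreated libraries spanned most of the range. The CDX2 region at chr13:27967870-27969641 covers the canonical start and the first exon, and the best other region lay 28.5 kb upstream at chr13:27997808-27998742, between genes and nearer to the start of URAD. Its ranks were 11758 in untreated replicate 1, 12844 and 22977 with cobimetinib, and 70056 and 19513 with TNFα, and untreated replicate 2 had no peak there. Within 50 kb of the only CDX1 start each list had 3 to 5 peaks, and 1 of them, 5.0 kb upstream at chr5:150161127-150161793, was among the 20000 highest of a library. It ranked 8844 in cobimetinib replicate 1, 33376 in cobimetinib replicate 2, and 27215 and 102407 in the untreated libraries, and neither TNFα library had it. The difference of TNFα from cobimetinib there was -1.66 ± 0.68 (SE) in log2 score, with the lowest score of the list standing in for no peak, and did not pass the test (adjusted p = 0.326).

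The 250 bases before the CDX2 start are shown because, of the 9 such windows found for 7 of the factors, they alone carry words for CDX and FOXA. Words searched on both strands were TGACTCA or TGAGTCA for AP1, CAATAAA or CCATAAA for CDX, CAAAGTCCA for HNF4, TGTTTAC for FOXA and AGATAA for GATA. Capitals mark the matches, and the sequence is from RefSeq (GRCh38.p14), minus strand, chr13:27969316-27969565.
CDX2 promoter: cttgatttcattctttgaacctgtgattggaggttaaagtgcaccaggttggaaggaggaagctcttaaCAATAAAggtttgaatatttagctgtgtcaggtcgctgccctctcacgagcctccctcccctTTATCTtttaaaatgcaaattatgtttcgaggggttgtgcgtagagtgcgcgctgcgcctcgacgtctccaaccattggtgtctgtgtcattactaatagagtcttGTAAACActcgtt
It holds 1 CDX, 1 FOXA and 1 GATA word. Over the 9 windows, a GATA word occurred in 2, an AP1, a CDX and a FOXA word in 1 each and an HNF4 word in 0, and 6 windows held none of them. In windows of this length before all 35116 RefSeq starts, a CDX word occurred in 5.8%, a FOXA word in 3% and a GATA word in 9.2%. A match is a stretch of letters and not a measured binding site.

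HNF4A, a nuclear receptor of hepatocytes and enterocytes, has an upstream and a downstream group of starts. The 3 upstream starts (44355699 to 44355805 on chromosome 20) had a peak in all 6 lists, while the 7 downstream starts (44401239 to 44401401) had one in 2 lists, at ranks 88924 (untreated replicate 2) and 93323 (cobimetinib replicate 1). At the upstream starts the ranks were 15785 and 32440 in untreated, 13682 and 12221 in cobimetinib, and 21019 and 16889 in TNFα libraries. Cobimetinib ranks were thus better than both others, and the TNFα ranks lay between the untreated ones. The best other region, chr20:44407015-44408412, lay inside the gene 5.6 kb downstream of the downstream starts, overlapping an exon and the microRNA gene MIR3646. It ranked 6969 and 40964 in untreated, 7408 and 13194 in cobimetinib and 12287 and 11808 in TNFα libraries, so the untreated pair enclosed all 4 treated libraries. The 250 bases before each start group are shown because the mark separated them. They are on the plus strand of GRCh38.p14 at chr20:44355449-44355698 (upstream) and chr20:44400989-44401238 (downstream), with the same words in capitals.
HNF4A upstream: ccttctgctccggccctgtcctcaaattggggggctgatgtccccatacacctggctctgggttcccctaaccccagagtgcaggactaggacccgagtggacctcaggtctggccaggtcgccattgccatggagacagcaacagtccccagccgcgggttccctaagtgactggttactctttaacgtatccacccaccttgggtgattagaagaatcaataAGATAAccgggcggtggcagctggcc
HNF4A downstream: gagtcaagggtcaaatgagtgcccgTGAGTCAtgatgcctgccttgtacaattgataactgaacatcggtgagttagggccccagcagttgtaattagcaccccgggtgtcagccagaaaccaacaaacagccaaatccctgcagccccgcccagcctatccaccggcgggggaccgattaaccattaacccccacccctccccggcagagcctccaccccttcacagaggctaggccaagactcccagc
The upstream stretch has 1 GATA word and the downstream stretch 1 AP1 word, which occurs in 4.2% of RefSeq windows of this length. Both have a GC content near 58%, at 58.4% and 58%.

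FOXA1, a pioneer factor of endodermal epithelia, ranked 15610 in untreated replicate 1, 23687 and 22568 in cobimetinib, and 22110 and 20575 in TNFα libraries. The treated libraries lay close together, and the untreated pair held both the best rank and the absent peak. Its start region (chr14:37595337-37596580), which also covers an exon of TTC6, was among the 20000 highest peaks only in untreated replicate 1. A further region 10.4 kb downstream (chr14:37582835-37583813) was among the 20000 highest peaks only in cobimetinib replicate 2, at rank 12005. Weaker peaks there ranked 23848 in untreated replicate 1, 22080 in cobimetinib replicate 1 and 36672 in TNFα replicate 2.

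GATA6 is a zinc finger factor of the gut epithelium. Its promoter ranks were 20572 in untreated replicate 1, 28306 and 45805 in cobimetinib, and 17886 and 42300 in TNFα libraries, and untreated replicate 2 had no peak. The replicates of each group differed as much as the groups. A single region was found within 50 kb, at the start itself (chr18:22169421-22170126), which the antisense gene GATA6-AS1 shares. The 250 bases before the GATA6 start (chr18:22169339-22169588, plus strand) are shown because the peak there was present in some libraries and absent in another.
GATA6 promoter: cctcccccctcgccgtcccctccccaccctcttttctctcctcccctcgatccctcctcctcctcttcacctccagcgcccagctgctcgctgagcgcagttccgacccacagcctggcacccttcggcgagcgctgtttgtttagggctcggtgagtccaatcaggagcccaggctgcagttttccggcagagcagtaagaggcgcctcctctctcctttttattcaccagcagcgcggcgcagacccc
None of the 5 kinds of word occurs in these 250 bases, which are rich in GC (64.4%). The 1 kb window at the middle of the GATA6 region did hold GATA words.

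KLF4 and KLF5 are Krüppel-like factors. KLF4 ranked 11069 and 5377 in untreated, 15385 and 23538 in cobimetinib, and 11828 and 15904 in TNFα libraries. All 4 treated ranks were worse than both untreated ranks. On the quantile-normalised log2 score used in the tests, the difference of cobimetinib from untreated was -0.87 ± 0.40 (SE, 2 libraries a group), with a limma p of 0.503 after Benjamini-Hochberg adjustment over all genes tested. A region 6.8 kb beyond the KLF4 starts (chr9:107480540-107481647) was held by 5 libraries, at ranks from 10411 to 14537, and ranked 56479 in untreated replicate 2.

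KLF5 ranked 10018 and 111728 in untreated, 18855 and 5233 in cobimetinib, and 4608 and 3938 in TNFα libraries, so both TNFα ranks were the best of all. The fitted score was higher in TNFα than in untreated by 1.56 ± 0.46 (SE, adjusted p = 0.769). That gap rested on the edge of the window. In untreated replicate 2 the main peak began just beyond 1 kb from the first KLF5 start, and its rank was 785. Taken over the whole region (chr13:73055329-73057149, in an intron and 353 bp from a start), the ranks were 10018, 785, 18855, 5233, 4608 and 3938 in the same order of libraries, and the difference was -0.14 ± 0.49. The canonical KLF5 start at 73059005 had a peak in 3 lists only, none ranked better than 44276.

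SOX9, an HMG box factor of intestinal stem and Paneth cells, ranked 18193 and 56479 in untreated, 22080 and 18661 in cobimetinib, and 25393 and 21745 in TNFα libraries. The 4 treated ranks lay between the untreated ones. Its start region (chr17:72120658-72121801) is shared with exons of SOX9-AS1.

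ELF3 ranked 17227 and 7493 in untreated, 5206 and 7248 in cobimetinib, and 10697 and 15904 in TNFα libraries. Both cobimetinib ranks were better than all others, and TNFα lay within the untreated range. The peaks behind these ranks were not at 1 place. The first ELF3 start (202007945 on chromosome 1) ranked 17227, 7493, 5206, 7248, 19659 and 15904 across the untreated, cobimetinib and TNFα libraries, whereas the 8 later starts (202010587 to 202013778) ranked 24554, 106783, 78290, 38939, 10697 and 18129. At the later starts the TNFα libraries had the best 2 ranks, and at the first start the cobimetinib libraries had them.

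No promoter of the 9 factors passed the test. limma was fitted to 10389 genes with a promoter peak in all lists, among them 6 of the factors, and called 0 factors in any comparison at an adjusted p under 0.05. Over all genes it called 0.0193% for cobimetinib against untreated, 0% for TNFα against untreated and 0.00963% for TNFα against cobimetinib. At an unadjusted p under 0.05 it found KLF4 (cobimetinib against untreated), KLF5 (TNFα against untreated) and no factor in the third comparison, beside 994, 589 and 863 genes in all. The median difference of the 6 factors was 0.17, -0.08 and -0.19 in the 3 comparisons, against -0.01 over all genes in each. The smallest adjusted p among the factors was 0.503, 0.769 and 0.663. With 2 libraries a group, the promoter and region fits each called 0 of 200 features changed by 1 on the log2 scale in simulated data. Of 200 changed by 2, the promoter fit called 92 and the region fit 0. The simulation shuffled the spreads among features, so a high-scoring feature could receive the spread of a low-scoring one. Its counts are thus not the power of the fits on the real libraries, where the region fit called 303 regions for TNFα against cobimetinib. With 2 libraries a group, a value that missed the threshold is still not shown to be unchanged.

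Ranks whose groups did not overlap were counted for the same 6 factors, and the share of all genes is given beside each count, with no test of the difference. With cobimetinib, HNF4A and ELF3 ranked better than in untreated cells (21.9% of all genes did so) and KLF4 ranked worse (14.1%). With TNFα, KLF5 ranked better than in untreated cells (12.7%) and KLF4 worse (16.7%). The KLF5 separation from untreated rested on the edge of the window. Over its whole region untreated replicate 2 ranked 785, better than both TNFα libraries (4608 and 3938). Between the treatments, KLF5 ranked better with TNFα (15.9%), and CDX2, HNF4A and ELF3 ranked worse with TNFα (28.8%). Ranked among promoters alone or by share of the list, ELF3 with cobimetinib and KLF4 with TNFα overlapped untreated, and between the treatments CDX2 no longer differed without overlap (nor ELF3 by share of the list). A two-sided exact permutation test of 2 libraries against 2 cannot give a p below 0.333, the value for each of these.

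Merging the 20000 highest peaks of each library within 100 bp gave 38598 regions, and 31 of them lay within 50 kb of a start of the 9 factors. ELF3 had 9 regions, KLF5 had 6, SOX9 had 4, CDX2 and HNF4A had 3 each, FOXA1 and KLF4 had 2 each, and CDX1 and GATA6 had 1 each. The median was 3 for the factors and 3 for all genes, and 4.483% of genes had more than ELF3. Of the 31 regions, 7 (22.6%) were held by all 6 libraries, against 20.5% of all regions, and 8 (25.8%) by 1 library, against 40.6%. Untreated replicate 2 alone held 3 of those 8. The best ranked of them lay 33.5 kb upstream of SOX9 (chr17:72087264-72087552, in introns of SOX9-AS1 and LINC02097). This region was 289 bp wide and ranked 85. It was singled out after its values were seen, and the other 5 lists had no peak there.

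ELF3 had 13112 and 7270 bp under peaks within 50 kb in the untreated libraries, 14413 and 14091 bp with cobimetinib, and 10314 and 11484 bp with TNFα. KLF5 had 9071 and 6181, 7068 and 7089, and 9186 and 8434 bp in the same order. Cobimetinib exceeded untreated without overlap for ELF3 alone (7.45% of all genes), and no factor went the other way (8.07%). TNFα exceeded untreated for no factor (8.11%) and fell short of it for GATA6 (5.33%). TNFα exceeded cobimetinib for KLF5 (15.9%) and fell short of it for CDX2, GATA6, ELF3 and FOXA1 (17%). These sums move with how much was called in a library, and the 20000 highest peaks covered 10162 kb in untreated replicate 2 against 19766 to 26073 kb in the others.

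**Figure D2:**
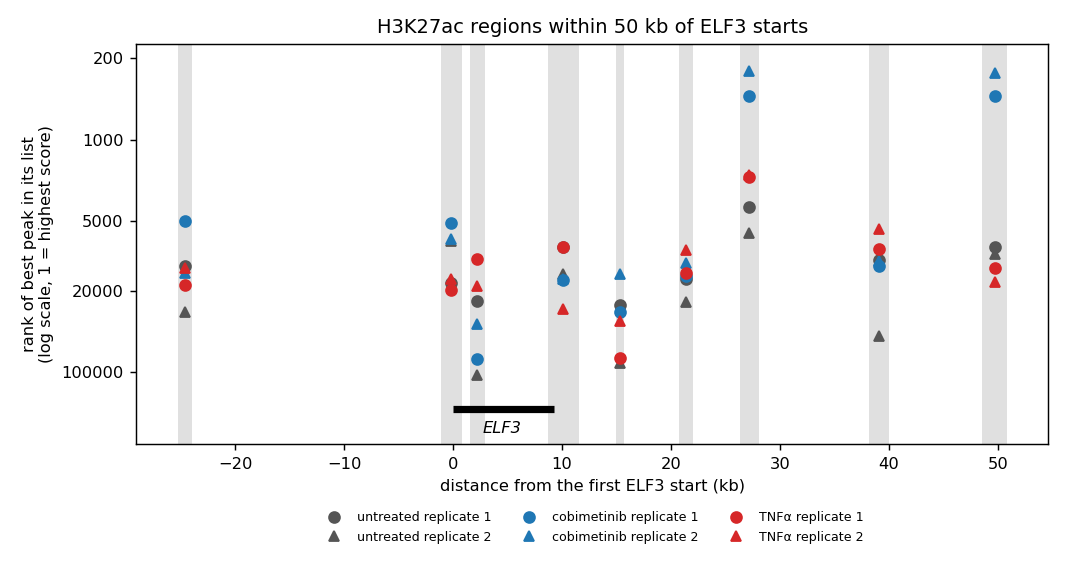
Rank of the best peak (vertical axis, log scale, higher is better) in each of the 9 regions within 50 kb of ELF3 starts, placed by distance from the first ELF3 start in kb. Grey bands are the regions, the black bar is the gene, and colors and symbols are as for the promoter ranks. At the regions 20.5 and 42.8 kb from the last start the blue cobimetinib points rank between 254 and 424, above every grey and red point.

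A region downstream of ELF3 gave the only called difference among the 31. It lies between genes at chr1:202056538-202058788, 42.8 kb from the last ELF3 start, which is the nearest protein-coding start. Its scores were 142 and 52 in untreated, 367 and 418 in cobimetinib, and 89 and 59 in TNFα libraries, at ranks 8441, 9612, 424, 265, 12896 and 16889. The cobimetinib libraries were far above the rest, and the TNFα libraries ranked below both untreated ones. On the normalised log2 scale the difference of TNFα from cobimetinib was -2.35 ± 0.38 (SE, limma adjusted p = 0.0069). Cobimetinib was higher than untreated by 1.87 ± 0.38 (adjusted p = 0.091), which missed the threshold, and TNFα differed from untreated by -0.48 ± 0.38 (adjusted p = 0.648).

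That call rested on all 6 libraries being in the fit. Without any 1 of the 6 libraries the difference between TNFα and cobimetinib stayed between -2.17 and -2.47, but its adjusted p rose to between 0.0686 (without untreated replicate 1) and 0.345 (without TNFα replicate 2). With the 4 treated libraries alone it was -2.51 (adjusted p = 0.147), and the fit then called 0 of all regions.

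Another region between genes, 20.5 kb downstream of ELF3 at chr1:202034249-202036029, was its best ranked. Its ranks were 3788 and 6400 in untreated, 424 and 254 in cobimetinib, and 2121 and 2025 in TNFα libraries. All 4 treated libraries were above both untreated ones, and cobimetinib was highest. The share of all regions ordered like this one, or like the region at 42.8 kb, is not given. The difference of cobimetinib from untreated was 1.43 ± 0.35 (SE, adjusted p = 0.157), and that of TNFα from cobimetinib was -0.87 ± 0.35 (adjusted p = 0.309). A stretch of 300 bases around its GATA word (AGATAA, here on the other strand), in capitals, is printed from the plus strand of hg38, because this was the best-ranked region near ELF3. It was chosen after its values were seen.
ELF3 +20.5 kb (chr1:202034990-202035289): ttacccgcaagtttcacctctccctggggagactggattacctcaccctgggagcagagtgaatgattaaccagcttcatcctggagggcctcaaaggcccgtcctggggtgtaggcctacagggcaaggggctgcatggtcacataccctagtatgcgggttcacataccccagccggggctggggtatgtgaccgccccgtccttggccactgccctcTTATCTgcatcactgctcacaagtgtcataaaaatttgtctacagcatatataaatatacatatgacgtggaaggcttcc
No AP1, CDX, HNF4 or FOXA word falls within this stretch.

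Inside ELF3 itself, the region over the later starts (chr1:202009504-202010873, with exons of ELF3 and ELF3-AS1) was among the 20000 highest peaks of both TNFα libraries and of no other library. Its scores were 57 and 24 in untreated, 26 and 38 in cobimetinib, and 104 and 57 in TNFα libraries. Weaker peaks were therefore present everywhere, and untreated replicate 1 equalled TNFα replicate 2 in raw score. By presence it counted as gained in TNFα against untreated, as 3.56% of all regions did, and against cobimetinib, as 5.41% did. The fitted differences were 1.14 ± 0.62 (adjusted p = 0.648) and 1.29 ± 0.62 (adjusted p = 0.415). When the 40000 highest or all peaks were used it was no longer gained. With the 10000 highest it was not among the regions, since its best rank was 10697. The 1 region near the factors gained in each TNFα comparison with 10000 peaks is another. No stretch of 300 bases in it was free of exons, so none is printed.

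No other region near the factors was gained or lost by presence. Over all regions, cobimetinib against untreated gained 3.92% and lost 1.6%, TNFα against untreated lost 1%, and TNFα against cobimetinib lost 4.39%. The fit called 0.0104% of all regions for cobimetinib against untreated, 0% for TNFα against untreated and 0.785% for TNFα against cobimetinib (254 higher and 49 lower with TNFα). Of the 31 regions it called 0, 0 and 1. At an unadjusted p under 0.05 there were 5, 1 and 6 of the 31, beside 4083, 2716 and 4729 of all regions. The median difference of the 31 was 0.33 for cobimetinib against untreated, where 22 of them were above 0, -0.002 for TNFα against untreated and 0 for TNFα against cobimetinib. Over all regions it was at or near 0 in each. The share of all regions above 0 is not given, so the 22 has no background beside it. Untreated replicate 2 held 14 of the 31 regions, against 19 to 22 in each other library. ELF3 and KLF5 gave 9 and 6 of the 31. How far that library or those genes set the median of 0.33 was not tested, and no general rise near the factors is read from it.

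**Figure D3:**
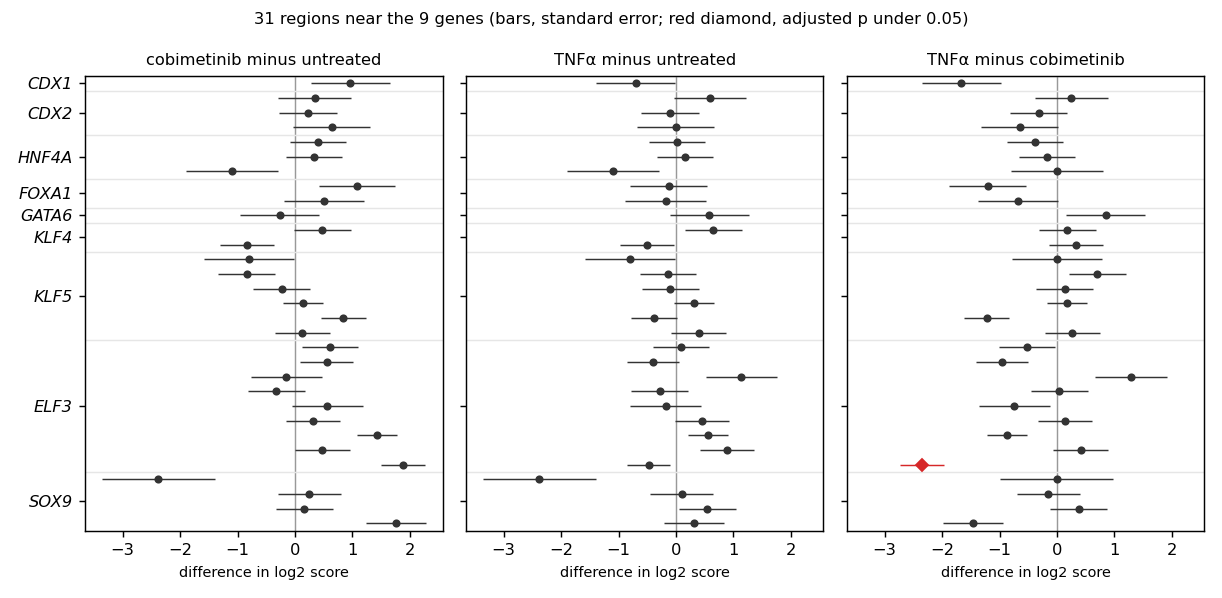
Differences in normalised log2 score with standard errors for the 31 regions, grouped by gene and ordered by position within each gene, in the 3 comparisons. The single red diamond, at -2.35 for TNFα minus cobimetinib, is the region 42.8 kb downstream of ELF3, and the point at -2.38 in the first and second panels is the SOX9 region that only untreated replicate 2 held.

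A pair of further distal regions had their highest scores with cobimetinib. Downstream of SOX9 by 30.1 kb, in an intron of SOX9-AS1 (chr17:72151110-72152597), the ranks were 10148 and 67712 in untreated, 1225 and 3955 in cobimetinib, and 26692 and 8382 in TNFα libraries. Both cobimetinib libraries exceeded the other 4, whose replicates were far apart. The difference from untreated was 1.76 ± 0.52 (SE, adjusted p = 0.256), and without untreated replicate 2 it was 1.14 (adjusted p = 0.759). Downstream of KLF5 by 20.9 kb (chr13:73095915-73097519, between genes and named after its values were seen), the ranks were 8063 and 8510, 3253 and 1821, and 13064 and 12035 in the same order. Here the 3 pairs of replicates did not overlap, with cobimetinib best and TNFα worst. The share of all regions ordered like this one, or like the SOX9 region, is not given. These orders are therefore descriptions without a background. The difference of TNFα from cobimetinib was -1.23 ± 0.40 (adjusted p = 0.191), and cobimetinib was above untreated by 0.84 ± 0.40 (adjusted p = 0.464).

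The best-ranked region near KLF5 varied little. It lay 14.7 kb downstream at chr13:73089679-73091546 and ranked 939 and 3125 in untreated, 1282 and 1464 in cobimetinib, and 1072 and 853 in TNFα libraries. Its fitted differences were 0.14 ± 0.35, 0.32 ± 0.35 and 0.18 ± 0.35 for cobimetinib against untreated, TNFα against untreated and TNFα against cobimetinib. The 7 regions held by all 6 libraries belonged to ELF3 (3) and KLF5 (4), and those of KLF5 lay 0.4, 14.7, 20.9 and 46.4 kb from a start.

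**Figure D4:**
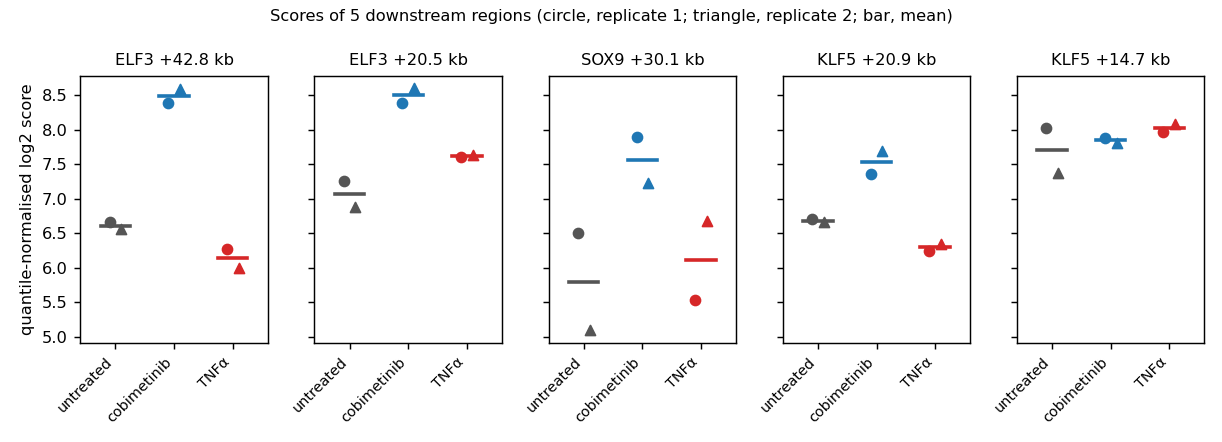
Quantile-normalised log2 scores of 5 downstream regions by group, with circles for replicate 1, triangles for replicate 2 and bars for the mean of 2 libraries. The cobimetinib points at ELF3 +42.8 kb lie near 8.5, above all other points in that panel, while the 6 points at KLF5 +14.7 kb lie between 7.38 and 8.08.

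Within 1 kb windows at the middle of the regions, a GATA word occurred in 19 of the 31 (61.3%, against 39.5% of all regions), and 7 of the 9 ELF3 regions and 5 of the 6 KLF5 regions had it. An AP1 word occurred in 12 (38.7%, against 32.7%), a CDX word in 8 (25.8%, against 28.9%), a FOXA word in 4 (12.9%, against 13%) and an HNF4 word in 1 (3.2%, against 1.3%). Regions of 1 gene share their surroundings, so these shares are descriptions without a test.

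Other factors of the intestinal epithelium were examined as a list of 28. A promoter peak was present in all 6 lists for 13 of them and in none for 7 (GATA5, FOXA2, ASCL2, ATOH1, SPDEF, NEUROG3 and NEUROD1). Of all protein-coding genes, 51.9% had one in all 6 lists and 25.5% had none. The fit called none of the 13 in any comparison, with median differences of 0.02, 0.08 and 0.07. The best ranked were GRHL2, a regulator of epithelial junctions, at 1477 to 7192, KLF6 at 1909 to 7766, and PPARG, a nuclear receptor of lipid metabolism, at 3085 to 7003. Each ranked better in every library than CDX2, FOXA1, GATA6 and SOX9 did, where those had a peak. Among 30 genes of differentiated intestinal cells, only CA2, a carbonic anhydrase, had a promoter peak in all 6 lists, at ranks from 7836 to 102407, and 13 had none, including VIL1, MUC2, ALPI and CEACAM5. The shares of all genes beside these counts are again 51.9% and 25.5%. CDHR5 and DPP4, brush border genes, had peaks in 3 lists each.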

How the data were processed

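H3K27ac peak lists of 6 libraries were used. Per the labels and the study's methods, reads were aligned to hg38 with BWA (0.7.15) and peaks were called in each library with MACS2 (2.1.1) without IgG background, in paired-end and single-end modes that the authors merged by the higher score. Scores as deposited are whole numbers, not read counts, so depth is unknown. Untreated replicate 2 is marked in its peak names as a merge after resequencing. A column of scores was used for every sample.

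Starts came from GENCODE 44. The best score within 1 kb of a start (promoters), or in each region, was put on the log2 scale, quantile normalised and fitted with limma 3.58.1 (R 4.3.3, trended variance), the 3 groups sharing 1 spread. Promoters needed a peak in all 6 lists, and a region without a peak received the lowest score. P-values were adjusted by the Benjamini-Hochberg method over all genes or regions, with a threshold of 0.05. Python 3.11.15 was used otherwise. Gained or lost regions were held by both libraries of 1 group and neither of the other. Tested on simulated data whose spreads were shuffled among features, the promoter fit recovered some of the larger changes only and the region fit none of those added.

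Named regions were that at each start, the best-ranked other within 50 kb and those called, and named genes of the lists were the 3 best ranked. The genes, lists and tests were chosen with earlier results of these data known. The labels do not say whether replicate numbers pair the libraries, and the main fits did not pair them. Differences of replicate 2 from replicate 1 correlated between groups at -0.032 to 0.0957, which cannot settle how the libraries were prepared. RefSeq promoter sequences matched 7 of the 9 factors. A sequence and a gene that the rules would name are not reported here.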

Additional observations from a re-analysis of the deposited data

How the results depend on the processing

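Of the 481 values recomputed under alternatives, 302 kept their direction and side of the threshold (or stayed within 1.5 times for counts). Depth is unknown, and untreated replicate 2 limits every comparison with untreated cells.

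Whether the replicate numbers pair the libraries is not stated in the labels, so the fits were also run with replicate number as a block. With the replicate block, called regions near the factors were 3 for cobimetinib against untreated (ELF3 +42.8 kb, adjusted p = 0.00265, ELF3 +20.5 kb, 0.0169, and SOX9 +30.1 kb, 0.0228) in place of 0, over all regions 469, 163 and 846 in place of 4, 0 and 303, and counting ranks by same-numbered pairs gave 2 factors worse in TNFα than untreated and 2 better in TNFα than cobimetinib, in place of 1 each. The block changed no other fitted call on the factors. With log2 rank, 4 regions were called for cobimetinib against untreated (441 of all 38598) and 1 for TNFα against untreated (248 of all). With 10000 peaks per library 1 of 17 regions near the factors was called for cobimetinib against untreated (31 of all 18837). With 40000 peaks it was 1 of 64 (167 of all 104903). For TNFα against cobimetinib 6 regions were called with array weights (5097 of all regions), and 0 within 10 kb or with the 4 treated libraries alone, an alternative added after the data were seen. The cause was not tested.

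Leaving out a library leaves 1 in a group, so the numbers called in those fits are not given here. Without untreated replicate 1, more promoters and regions were called against untreated, for the factors and over all genes and regions alike. Untreated replicate 2 alone then stood for its group, and the KLF5 promoter difference of TNFα from untreated was 2.25. Leaving out any 1 library removed the call at ELF3 +42.8 kb, as described above. With all 6 libraries the KLF5 promoter difference of TNFα from untreated was -0.060 within 2 kb. Within 500 bp or at coding starts KLF5 lacked a peak in some list.

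The counts below are of regions near the factors, with the count over all regions in brackets. With 10000 peaks there were 17 such regions among 18837, with 40000 peaks 64 among 104903 and with all peaks 180 among 346042. At a score of at least 50 there were 30 among 33077, and otherwise 31, or 49 within 100 kb, among 38598. Gained regions for cobimetinib against untreated, 0 in the report, were 1 with 10000 (1015) or 40000 peaks (2425). They were also 1 with peaks covering 50% of the region (1598), within 100 kb (1512) or at a score of at least 50 (1638). With all peaks they were 3 (4836), and leaving out a library 0 to 7 (1512 to 6164). For TNFα against untreated, 1 in the report, they were 0 with 40000 (1724), 5 with all (4754) and 2 at 50% cover (1413) or within 100 kb (1375). Leaving out a library gave 1 to 7 (1375 to 6131). For TNFα against cobimetinib they were 0 with 40000 (2649), 5 with all (5814), 2 at 50% cover (2348), and 1 to 3 leaving out a library (2089 to 4349). Lost regions, 0 in the report, were 2 with 10000 (409) and 1 with all peaks (3664) for TNFα against untreated. For TNFα against cobimetinib they were 3 with 10000 (1155), 40000 (3137) or 50% cover (2058), and 6 with all peaks (5637). Leaving out a library gave 0 to 3 lost in each comparison. Over all regions these were 619 to 8537, 387 to 8300 and 1694 to 4048, in the order of the comparisons above. A library left out leaves 1 in its group, which makes the presence rule easier to meet.

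Ranked among promoters or by share of the list, 1 factor (HNF4A) was better with cobimetinib than untreated and 0 were worse with TNFα than untreated. Among promoters 2 were better with TNFα than cobimetinib, and by share 1 was worse. Leaving out a library gave 2 to 4 and 1 to 2 (cobimetinib better and worse than untreated), 1 to 3 and 1 to 3 (TNFα against untreated), and 1 to 2 and 3 to 4 (TNFα against cobimetinib). Where that leaves 1 library against 2, a count can rise but not fall. The share of all genes was not counted for these alternatives or for same-numbered pairs, so no result about the factors is read from them.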

Other observations

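Genes whose promoter ranks among all promoters were closely like those of each factor over the 6 libraries were found by the mean absolute difference in log10 rank. They were MIF4GD (0.0255) and KAT6A (0.0294) for CDX2, NEDD1 (0.0208) and OSBP (0.0271) for HNF4A, URGCP-MRPS24 (0.0273) and TRUB2 (0.0432) for KLF4, BICRA (0.0844) and C19orf25 (0.0858) for KLF5, SPIN1 (0.0447) and AHDC1 (0.0527) for ELF3, and PIK3R1 (0.0162) for SOX9. The KLF5 values were the farthest from their nearest neighbours. They include the rank of 11555 among promoters in untreated replicate 2, which rested on the edge of the 1 kb window.

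The untreated libraries differed in the width of the best promoter peak. At CDX2 the best peak was 2164 bp wide in untreated replicate 1 and 236 bp in untreated replicate 2, and between 1180 and 1479 bp in the treated libraries. At KLF4 it was 1754 and 190 bp in the untreated libraries and between 688 and 1354 bp in the treated ones. ELF3 kept the widest peak of the factors in untreated replicate 2, at 1004 bp.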
